A study of Danio rerio with 416 samples.

Results

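The transcripts of the hnRNP, SR and KHDRBS families of splicing factors were examined in single cells of zebrafish embryos at 50% epiboly. The genes are all those whose row name starts with HNRNP, SRSF or KHDRBS, which gave 42 of the 25208 rows of the full-length table and 41 of the 19205 rows of the table of molecule counts. There are 21 HNRNP, 17 SRSF and 4 KHDRBS genes, and khdrbs2 is the gene that appears in the full-length table alone. The rule goes by name only. It leaves out 3 rows with the older prefix HNRP (hnrpl, hnrpdl and hnrpkl), whose mean values in MZoep were 194.4, 103.2 and 5.40 FPKM.

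Each of the 416 samples is 1 cell, taken by hand after embryos were freed of yolk and mechanically dissociated. Wild-type cells came from TLAB fish and mutant cells from MZoep embryos carrying the tz57 allele, in which the embryo has neither maternal nor zygotic function of tdgf1 (one-eyed pinhead), a co-receptor that Nodal signals need. Full-length SMART-seq2 libraries of polyadenylated RNA were made from 328 cells, 52 of them wild type and the others MZoep, in 4 library preparation batches named p1 to p4, and 5-prime libraries with unique molecular identifiers (UMIs) from 88 further MZoep cells in batch p0. No wild-type cells were made by the 5-prime method. The labels name no embryo or clutch and do not give the strain of the MZoep fish, so each genotype counts as 1 sample, genotype, strain and clutch cannot be told apart, and no difference between genotypes has a replicate check or a test.

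hnRNP proteins coat newly made RNA and act in splice site choice, often as repressors, and in the export, stability and translation of mRNA. SR proteins carry an RNA recognition motif and a tail rich in arginine and serine, bind exonic enhancers and recruit the splicing machinery, and are switched by phosphorylation. KHDRBS proteins are KH-domain RNA-binding proteins that link signalling to splicing. They are neither hnRNP nor SR proteins in the strict sense. Many of these genes exist in zebrafish as pairs left by the genome duplication of teleost fish, named with a final a and b.

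After cells with few detected genes were left out, 47 wild-type cells remained (3, 14, 18 and 12 by batch), with 79, 80, 61 and 25 MZoep cells and 86 of the 5-prime cells. The 5-prime cells held between 29246 and 73231 UMIs. The deposited FPKM table carries no depth, but low FPKM values came in steps of 1 read. By these steps the median depth of p2, relative to the median of all cells, was 0.555 for wild-type and 0.707 for MZoep cells, while all other groups lay between 1.15 and 1.41. All kept cells of both genotypes had at least 1 of 6 blastoderm genes (pou5f3, sox3, vox, vent, tbx16 and foxi1) at 1 FPKM or more, and the summed FPKM of the 6 had a median of 1033 in wild-type and 1211 in MZoep cells.

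Some of the splicing factor genes were among the most abundant messages of these cells. The median rank of the 42 genes among all rows was 696 in wild type and 718 in MZoep. Together the splicing factor genes held 1.35% of the summed FPKM in wild type and 1.48% in MZoep, and 3.28% of all UMIs in the 5-prime cells. The full-length shares depend on a few very high rows. Without the 10 highest rows that are not splicing factor genes, a choice made after the data were seen, they were 3.26% and 3.37%. Leaving out rows of other genes alone must raise the shares. The UMI share was not taken in this way, so 3.28% is not a like value to set beside them. Of the 42 genes, 18 were among the 500 rows with the highest mean FPKM in wild type and 18 in MZoep, where 1.98% of all rows are. In the 5-prime cells 20 of 41 were among the 500 highest, against 2.6% of rows. Cytosolic ribosomal protein genes took more of the total, 2.23%, 2.63% and 4.73% of wild-type FPKM, MZoep FPKM and UMIs over 83 genes. None of them was among the 20 highest rows, however, whereas 3 splicing factor genes were in both full-length groups and 5 in the UMIs. This holds for a few genes only, as 69 of the 83 ribosomal protein genes were among the 500 highest rows in MZoep. Their median level there was 178.2 FPKM, against 66.9 FPKM for the splicing factor genes. The 46 proteasome subunit genes held 0.243% and 0.270% of FPKM and 0.488% of UMIs. Without the 10 highest rows of any kind, and with no rescaling of cells, the splicing factor genes held 2.72% and 2.74% of FPKM. The ribosomal protein genes then held 5.39% and 6.02%. These 10 rows include hnrnpa0l.

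In single cells the summed share of the family ranged from 0.449% to 1.77% in wild type with a median of 1.34%. It ranged from 0.661% to 2.15% with a median of 1.498% in MZoep, so the cells of the genotypes overlapped widely. Within p1 to p4 the wild-type medians were 1.45%, 1.56%, 1.25% and 1.36% and the MZoep medians 1.41%, 1.62%, 1.52% and 1.39%. MZoep lay above wild type in p2, p3 and p4 and below it in p1, which holds 3 wild-type cells. The 86 5-prime cells lay between 2.13% and 3.86%.

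**Figure D1:**
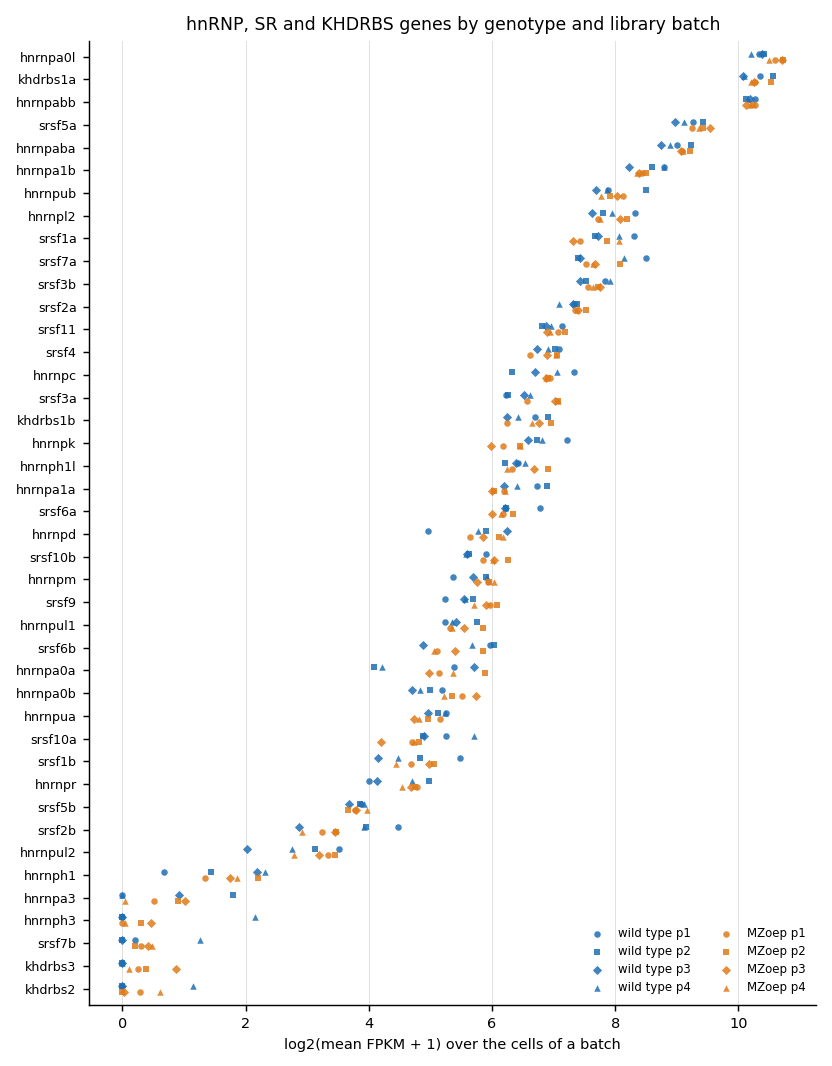
Mean level of each of the 42 genes over the cells of a batch, as log2(FPKM + 1), for wild type (blue) and MZoep (orange), with marker shape for batches p1 to p4. The 3 highest genes stand apart from the rest, the 5 lowest genes are near 0, and for all but 5 of the 36 measured genes the batch ranges of the genotypes overlap.

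The hnRNP A/B group, whose proteins package pre-mRNA and often repress splice sites, held the highest gene, hnrnpa0l, but also genes of low level. The mean level of hnrnpa0l was 1303 FPKM for wild-type and 1618 FPKM for MZoep cells, ranks 12 and 8 of all rows, and rank 3 in the UMIs. Its wild-type cells ran from 240.2 to 2088 FPKM with a median of 1327, and its MZoep cells from 310.2 to 3718 with a median of 1608. Every kept cell of each kind of library had it, at a low of 97 UMIs in the 5-prime cells. It is therefore a message that no cell lacked, although its row overlaps another gene of the family, as described below.

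hnrnpabb came after hnrnpa0l and khdrbs1a, which is described below, at 1148 and 1166 FPKM, ranks 15 and 14. Its wild-type cells lay between 411 and 1578 FPKM (median 1154) and its MZoep cells between 289.9 and 1923 (median 1175). Its batch means covered the same range, from 1118 to 1236 for wild-type and from 1116 to 1236 for MZoep cells. Its paralogue hnrnpaba had 500.004 and 558 FPKM, with wild-type cells from 227.1 to 739.7 (median 487) and MZoep cells from 28.2 to 989 (median 560.4). Both encode proteins of the hnRNP A/B type, related to hnRNP D. hnrnpa1b, for the general splicing repressor hnRNP A1, had 370.3 and 342 FPKM, with cells between 172.4 and 645 in wild type (median 363) and between 152.9 and 573 in MZoep (median 342). Its paralogue hnrnpa1a was lower, at 92.1 and 66.6 FPKM.

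Among the other hnRNP genes hnrnpub and hnrnpl2 led. hnrnpub, for a scaffold protein of the nucleus that also binds RNA, had 264.1 and 245.4 FPKM and was in every cell, from 66.1 to 462 FPKM in wild type (median 245.9) and from 30.5 to 675 in MZoep (median 247.3). hnrnpl2, of the hnRNP L type that binds CA-rich RNA, had 224.8 and 258.8 FPKM. It was listed at 0 in the lowest cell of each genotype, and its medians were 227.2 and 242.8 FPKM. Below these, hnrnpc, hnrnpk, hnrnph1l, hnrnpd, hnrnpm and hnrnpul1 lay between 44.7 and 117.6 FPKM in both genotypes, and hnrnpr between 22.9 and 24.7. hnRNP C binds uridine tracts, hnRNP K binds cytosine-rich RNA and DNA through KH domains, and hnRNP H binds runs of guanine. The name hnrnpk belongs to 2 gene IDs in the annotation used for names, so its values may cover either or both.

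Of the SR genes, srsf5a was far above the others at 581 and 695 FPKM, ranks 40 and 27. Its wild-type cells ran from 102.9 to 916 FPKM (median 598) and its MZoep cells from 194.5 to 1515 (median 668). In the 5-prime cells it had between 40 and 150 UMIs with a median of 85. The next 4 were srsf7a (209.04 and 221.98 FPKM), srsf3b (194.1 and 207.3), srsf1a (228.2 and 207.2) and srsf2a (155.8 and 172.1). SRSF1 and SRSF2 are the classical splicing activators, and SRSF3 and SRSF7 also act as adaptors for mRNA export. Their highest cells reached between 385 and 657 FPKM, and each was listed at 0 in at least 1 MZoep cell. srsf3a, srsf11 and srsf4 lay between 85.9 and 128.7 FPKM, and srsf6a, srsf10b, srsf9, srsf6b, srsf1b and srsf10a between 22.9 and 75.9, with srsf5b at 13.1 and 12.8. In the 5-prime cells the order was led by srsf5a with 1851 UMIs per 1000000 (CPM; exact Poisson interval 1810 to 1894, counting error only), followed by srsf3b at 715 and srsf2a at 682.

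khdrbs1a, for the protein known in mammals as Sam68, was second in mean FPKM of all 42 genes. It had 1239 and 1298 FPKM, ranks 13 and 11, and rank 8 in the UMIs. Wild-type cells ran from 65.8 to 1815 FPKM (median 1262), MZoep cells from 188.5 to 2268 (median 1339), and 5-prime cells from 72 to 283 UMIs (mean 169.8). Its paralogue khdrbs1b had 93.5 and 108.1 FPKM. The related khdrbs2 and khdrbs3, which in mammals act in neurons, were nearly absent. khdrbs3 was at 0 in each of the 47 wild-type cells, which by the limit of 3 cells allows up to 6.38% of cells with a detected value (exact upper bound 7.55%), reached 1 FPKM in 9 MZoep cells (3.67%, exact 95% interval 1.69 to 6.86) and gave 2 UMIs over the 86 5-prime cells. khdrbs2 reached 1 FPKM in 3 wild-type and 4 MZoep cells.

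Apart from these the lowest genes were hnrnpul2 (5.72 and 8.30 FPKM), hnrnph1 (2.82 and 2.75), hnrnpa3 (1.13 and 0.705), srsf7b (0.318 and 0.284) and hnrnph3 (0.764 and 0.225), with srsf2b just above at 11.9 and 9.12. The wild-type means of the last pair rest on few cells, since 1 cell held 90.3% of the wild-type total of srsf7b and another 58.4% of that of hnrnph3. In the 5-prime cells hnrnpa3, hnrnph3 and srsf7b had 8, 6 and 5 UMIs in all. The contrast within the H group was large, as hnrnph1l was at 81.8 and 99.6 FPKM while hnrnph1 and hnrnph3 were below 3 FPKM in both genotypes.

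For 12 pairs of genes whose names differ in the final a or b, the division of the message between the copies was compared. In most of these pairs 1 copy dominated. The higher copy, taken from the mean FPKM summed over the genotypes, held a median of 84.4% of a pair's FPKM in wild type, 85.8% in MZoep and 79.7% of its UMIs. In the UMIs the order of hnrnpa0a and hnrnpa0b is the reverse, and the copy with more UMIs held a median of 84.95%. The higher copy by FPKM held at least 80% in 7 of the 12 pairs in each genotype. It was picked from these same values, so its share is the larger one by choice. How a and b pairs outside these families divide their message was not measured, so these counts have no share to be set against. For 10 pairs the same copy was higher in all 8 groups of genotype and batch, and the share differed by less than 10 points between the genotypes in 11 pairs. FPKM are per length and UMIs count molecules, so both can be set between copies, but how far reads can be told apart between copies was not measured. The 2 kinds of value differed widely for hnrnpa0a and hnrnpa0b and for hnrnpua and hnrnpub. There hnrnpub held 89.7% of MZoep FPKM and 67.9% of UMIs.

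hnrnpa0a held 52.7% of the FPKM of hnrnpa0a and hnrnpa0b in wild type, 48.8% in MZoep and 8.26% of UMIs, with wild-type batches from 34.1% to 67.2% and MZoep batches from 36.9% to 59.5%. The order of this pair turned between batches. The most uneven pair was srsf7a and srsf7b, in which srsf7a held 99.8% of wild-type and 99.9% of MZoep FPKM and 99.8% of UMIs (exact interval 99.5 to 99.9). srsf5a held 97.8% and 98.2% of its pair and 96.9% of UMIs. srsf2a held 92.9% and 94.97%, and 94.8% of UMIs. khdrbs1a held 92.98% and 92.3%, with batch values between 91.9% and 94.2%, and 88.9% of UMIs. srsf1a (90.7% and 87.9%) and hnrnpa1b (80.1% and 83.7%) also dominated their pairs, and in the UMIs they held 85.2% and 84.7%. In each of these pairs the higher copy had more UMIs than the other in all 86 5-prime cells.

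3 pairs were shared more evenly with a constant order. hnrnpabb held 69.7% and 67.6% of its pair and 66.7% of UMIs, and it was above hnrnpaba in 86 of 86 5-prime cells. srsf6a held 61.5% and 61.8%, with batch values from 53.3% to 71.98%, and was above srsf6b in 60 of 86 cells. srsf3b held 69.3% in wild type and 61.7% in MZoep, and MZoep p2, p3 and p4 (59.9% to 62.6%) lay below every wild-type batch (65.4% to 75.5%), while MZoep p1 was at 66.5%. Its share of UMIs in the MZoep 5-prime cells was 71.3% (69.9 to 72.7).

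The pair with the largest gap between genotypes was srsf10a and srsf10b, which encode proteins that repress splicing when dephosphorylated. srsf10b held 58.6% in wild type and 74.6% in MZoep. The wild-type batches ran from 47.8% to 62.96% and the MZoep batches from 69.7% to 78.8%, so they did not overlap, and the 5-prime MZoep share was 74.7% (72.3 to 76.9). The mean values behind it were 34.4 and 22.9 FPKM for srsf10a and 48.6 and 67.2 FPKM for srsf10b. This pair was picked for the widest gap of 12 pairs. How often a and b pairs outside these families separate by genotype in this way was not measured.

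**Figure D2:**
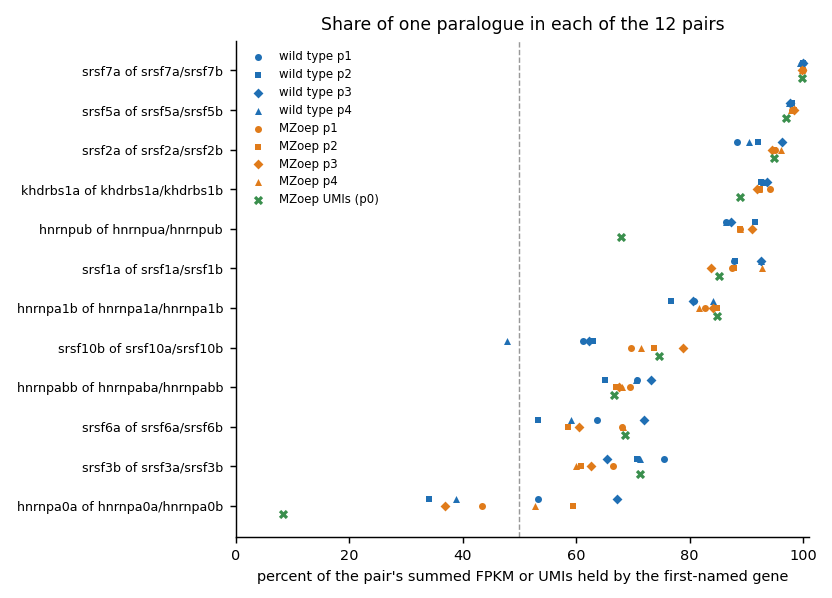
Percent of a paralogue pair's summed mean FPKM held by the first-named gene in each wild-type (blue) and MZoep (orange) batch, and of its summed UMIs in the 5-prime MZoep cells (green crosses). The dashed line marks 50%. The points of srsf7, srsf5, srsf2 and khdrbs1 lie close together, those of srsf10 separate by genotype, and the UMI points of hnrnpub and hnrnpa0a lie far to the left of the FPKM points.

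The hnrnpa0 genes were measured differently by the 2 kinds of library. In FPKM hnrnpa0l, of the 3 genes hnrnpa0l, hnrnpa0b and hnrnpa0a, held 95.6% of wild-type and 94.95% of MZoep level, between 94.4% and 96.7% in every batch. Of 34123 UMIs of the 3 genes, hnrnpa0l held 56.6% (exact interval 56.1 to 57.2), hnrnpa0b 39.8% (39.3 to 40.3) and hnrnpa0a 3.58% (3.39 to 3.78). hnrnpa0b had 28.3 and 44.1 FPKM, rank 1189 in MZoep, but it had 3344 CPM, rank 10, in the 5-prime cells. There its UMIs averaged 157.9 per cell with a lowest cell at 74, and the ratio to hnrnpa0l in the same cell from 0.401 to 1.04 with a median of 0.686. The RefSeq annotation of assembly GRCz12tu, used here only for names and neighbours, places hnrnpa0b and hnrnpa0l on overlapping stretches of the same chromosome. The sources used here do not say how reads of the overlap were assigned, so the level of each of the 2 genes is uncertain. The part of this overlap in the difference was not tested. The same annotation places protein-coding genes on stretches that overlap hnrnpaba, hnrnpc, hnrnpl2, srsf1a, srsf3a, srsf5b, srsf6a, srsf9, hnrnph1, hnrnpa3 and khdrbs2, whose values are uncertain to that extent, and hnrnpul2 found no match in it.

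Over 9402 genes seen in either kind of MZoep library, and with each value set against the median ratio of all genes, 33 of 36 splicing factor genes were within 2-fold, as were 79.1% of all genes. This comparison was chosen after the values were seen. 2 of the 36 were at least 4-fold higher in the 5-prime cells, where 1.68% of genes were, and none at least 4-fold lower, where 3.28% were. The 2 were hnrnpa0b (log2 4.17 above the median gene) and hnrnpua (2.41), which had 28.2 FPKM but 638 CPM. In that pair hnrnpub held 89.7% of its pair in MZoep FPKM, with all 8 groups between 86.3% and 91.5%, and 67.9% of its UMIs (66.8 to 68.9). The gene lowest relative to full length was hnrnpd (-1.04). Library kind, batch and annotated transcript length cannot be told apart here. Across the 36 genes Spearman's rho between the 2 kinds of library was 0.82, and 0.80 across all genes, as a description over genes that share their libraries.

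**Figure D3:**
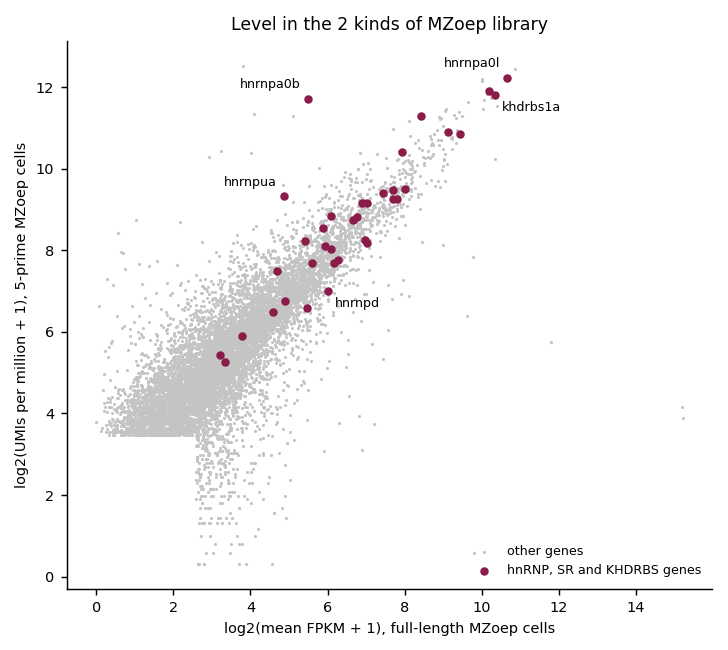
Level of 9402 genes in full-length MZoep cells, as log2(mean FPKM + 1), against 5-prime MZoep cells, as log2(CPM + 1). The 36 splicing factor genes (dark red) follow the band of other genes (grey) except hnrnpa0b and hnrnpua, which lie above it. The straight lower edges come from the filter of 10 CPM or 5 FPKM.

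Most of the messages were found in nearly every cell. In wild type 32 of the 42 genes reached 1 FPKM in 90% of cells or more, where 7.93% of all rows were. In MZoep the number was also 32, against 8.85% of rows. The genes below 90% in both genotypes were srsf5b (85.1% of wild-type and 85.7% of MZoep cells), srsf2b (70.2% and 72.2%), hnrnpul2 (55.3% and 65.3%), hnrnph1 (46.8% and 35.1%) and the 5 genes at or under 8.51%. The exact 95% intervals of hnrnph1 were 32.1 to 61.9 for wild-type and 29.1 to 41.4 for MZoep cells. They cover counting error only, and cells are not replicates, so they do not compare the genotypes. hnrnpa0b fell short in wild type alone (89.4%) and srsf10a in MZoep alone (88.98%).

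The coefficient of variation of FPKM over cells was lowest for hnrnpabb, at 20.02% in wild type and 19.7% in MZoep. It was 24.4% and 25.3% for hnrnpa0l, 29.2% and 28.3% for khdrbs1a, and 28.2% and 35.4% for srsf5a. All 5 genes with a mean of at least 500 FPKM lay below the median of the rows with such a mean. Their median was 24.5% against 35.96% over 56 rows in wild type and 27.2% against 39.6% over 54 rows in MZoep. The group has no upper bound, and the coefficient falls with level (wild-type median 48.6% over rows between 100 and 500 FPKM). The levels of the compared rows may therefore differ. Between 20 and 100 FPKM, 5 of 17 genes lay above the median of such rows in wild type and 3 of 16 in MZoep. At the other end srsf2b reached 116.8% and 132.2%, and hnrnpul2 137.4% and 131.9%. These values hold the differences between batches as well as counting error.

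UMIs allowed the counting error to be set apart. The dispersion used here is the variance of a gene's UMIs over that expected from sampling at each cell's own depth, so that 1 stands for sampling alone. Its median was 3.08 over the 36 genes with at least 1 UMI per cell and 2.79 over all 6702 such genes, and 23 of the 36 were above the median of all. Of the 36, 15 were above the upper quartile of the 6702. Dispersion grows with level, and among genes with at least 20 UMIs per cell the medians were 3.18 over 19 splicing factor genes and 3.50 over all 401. Below that level the order was mixed. The medians were 3.63 and 2.60 at 1 to 2 UMIs per cell (2 splicing factor genes) and 2.57 and 2.78 at 2 to 5 (3 genes). They were 3.08 and 2.90 at 5 to 10 (5 genes) and 3.22 and 3.04 at 10 to 20 (7 genes). The highest were hnrnpa0b (6.14), srsf5a (5.51), khdrbs1a (5.12), hnrnpa0l (4.71) and srsf7a (4.65). The lowest were srsf6b (1.67), khdrbs1b (1.75), srsf4 (1.90), hnrnpk (2.04) and srsf9 (2.06).

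Expressed as a coefficient of variation beyond sampling, the spread was 12.4% for hnrnpabb, 12.8% for hnrnpa0l, 13.5% for hnrnpa1b and 15.6% for khdrbs1a. It was 22.7% for srsf5a and 35.5% for srsf7a, whose cells ran from 8 to 87 UMIs with a median of 27.5. The median in the group with at least 20 UMIs per cell was 20.05% over the splicing factor genes and 27.8% over all genes. Since that group has no upper bound and the splicing factor genes include some of its highest members, the levels of the compared genes differ. Part of the spread beyond sampling can come from the making of the libraries, and this was not tested.

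**Figure D4:**
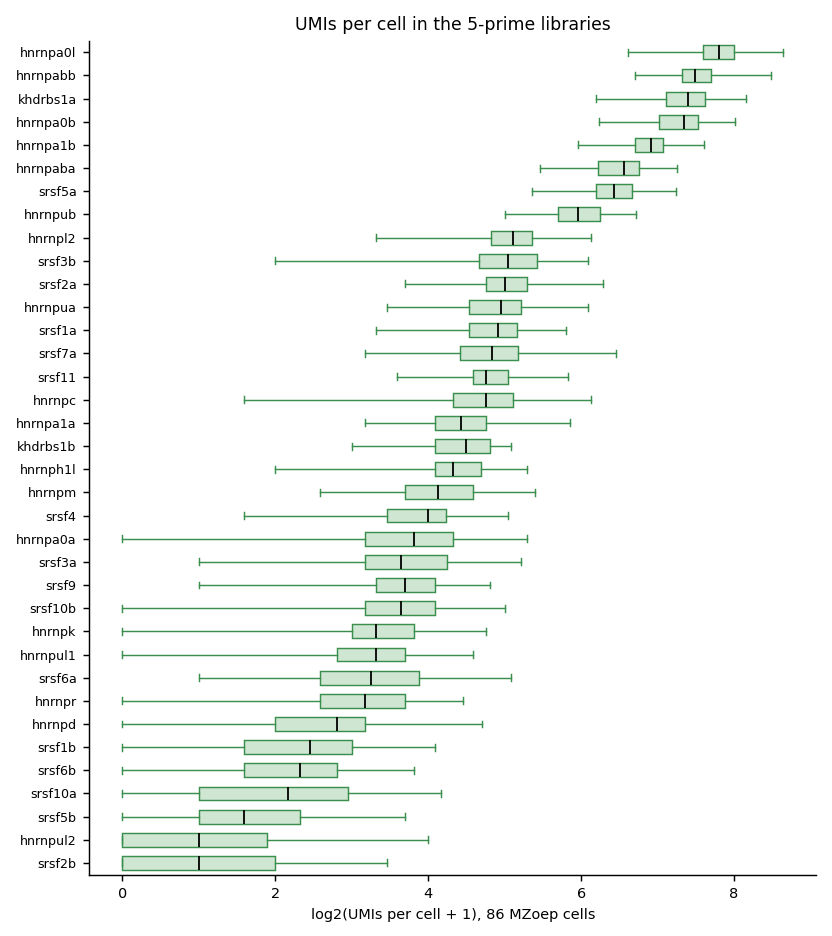
UMIs per cell, as log2(UMIs + 1), of the 36 genes with a mean of at least 1 UMI per cell in 86 MZoep cells. Boxes span the middle 50% of cells with the median as a line, and whiskers reach the lowest and highest cell. Boxes are narrow for the highest genes and widen toward srsf2b and hnrnpul2, whose median was 1 UMI.

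Correlations from cell to cell were taken between the abundant messages, and the highest are given first. After scaling to each cell's depth, hnrnpa0b had a Pearson correlation over the 86 5-prime cells of 0.57 with khdrbs1a, 0.50 with srsf5a, 0.48 with the overlapping hnrnpa0l and 0.47 with srsf1a, and hnrnpa0l one of 0.46 with khdrbs1a. These were the highest values over the pairs of 19 splicing factor genes, and they were picked for that. The median over the pairs of the 19 genes was 0.10. Over all 80200 pairs of 401 genes it was 0.03, and the middle 90% lay between -0.21 and 0.28. Some pairs lie above that range by its definition, and how many splicing factor pairs did so was not counted. In batch-centred full-length MZoep cells the value for hnrnpa0l and khdrbs1a was 0.73, for hnrnpa0l and srsf5a 0.57, and for hnrnpa0b and khdrbs1a 0.39. The other pairs with hnrnpa0b were lower there than in the UMIs, at 0.21 with srsf5a, 0.22 with srsf1a and 0.35 with hnrnpa0l. The middle 90% of all pairs of the 401 genes lay between -0.12 and 0.39 in these cells, with a median of 0.10, and the median over the splicing factor genes was 0.19. At the low end, hnrnpc had values of -0.25 with hnrnpaba and with hnrnpa0l. Over the 12 pairs of copies the values ran from -0.21 (srsf7) to 0.41 (hnrnpa0a and hnrnpa0b), with 0.31 for srsf3, 0.25 for khdrbs1, 0.24 for hnrnpa1, 0.09 for the hnrnpab pair and -0.12 for hnrnpua and hnrnpub. These pairs were not limited to genes with at least 20 UMIs per cell. The srsf7 value rests on 5 UMIs of srsf7b in 3 cells and says little about the 2 copies. In full-length MZoep cells the value was 0.06 for hnrnpa0a and hnrnpa0b, 0.04 for hnrnpa1, 0.00053 for srsf3, 0.27 for khdrbs1 and 0.35 for the hnrnpab pair. The 5-prime cells are all of batch p0, the full-length values were centred within p1 to p4, and all these values are descriptions. Depth-scaled values of hnrnpa0b and khdrbs1a had correlations of -0.08 and 0.06 with the cells' UMI totals. Such values are not given for the full-length cells.

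Between the genotypes the splicing factor genes differed little. A gene was counted as measured when either genotype had it at 1 FPKM in 20% of cells and either had a mean of 5 FPKM, which left 6943 genes and 36 of the 42. The 6 others are hnrnph1, hnrnpa3, hnrnph3, srsf7b, khdrbs2 and khdrbs3. None of the 36 was 2-fold apart on the scale of log2(mean FPKM + 1), the scale of every ratio given here, whereas 8.11% of all measured genes were. Of those, 5.26% were higher and 2.85% lower in MZoep. Splicing factor genes are more abundant than most measured genes (median 90.9 and 12.7 FPKM), and 2-fold gaps are rarer among abundant genes. Of genes with a mean of at least 20 FPKM 3.48% were 2-fold apart, and 0 of 33 splicing factor genes. For 33 genes a count of 0 is near that share. This group has no upper bound, so the levels of the compared genes may still differ.

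The median log2 ratio of MZoep over wild type was 0.10 over the 36 genes and 0.13 over all measured genes, and the ratios ran from -0.57 to 0.62. A higher mean in MZoep was found for 25 of the 36, against 62% of all genes. Within p1 to p4 the median was -0.10, 0.11, 0.22 and 0.01, beside -0.02, 0.24, 0.27 and -0.01 for all genes. The size of the ratios without their sign had a median of 0.15 over the 36 genes and 0.32 over all measured genes. Among genes with a mean of at least 20 FPKM these medians were 0.15 and 0.24. Ribosomal protein genes had a median ratio of 0.26 and proteasome genes of 0.18, and none of either group was 2-fold apart.

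In p1 to p4 taken singly, 2, 1, 2 and 2 of the 36 were at least 2-fold apart, where 31.7%, 21.1%, 20.9% and 17.7% of genes were. With a mean of at least 20 FPKM it was 1 of 33 in each batch, where 15.2%, 11.4%, 9.11% and 7.16% of genes were. Among those in more than 1 batch, hnrnpa0a had ratios of -0.25, 1.81, -0.72 and 1.16 within p1 to p4, so its direction turned between batches, and without p3 its combined ratio went from 0.40 to 1.27. The wild-type means of hnrnpa0a were 40.7, 15.9, 51.1 and 17.5 FPKM in p1 to p4 and its MZoep means 34.1, 58.3, 30.6 and 40.2. srsf2b had ratios of -1.23, -0.48, 0.58 and -1.01.

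Of the 36 genes, 7 had a higher mean in MZoep in all 4 batches, where 15% of genes did, and 4 a lower mean in all, where 6.67% did. For 3 genes every MZoep batch mean was above every wild-type batch mean, against 6.41% of genes. For hnrnpa0l the wild-type batch means of p1 to p4 were 1295, 1364, 1327 and 1177 FPKM and the MZoep means 1541, 1696, 1669 and 1445, so the groups did not overlap, with a ratio of 0.31 and batch ratios from 0.25 to 0.33. For srsf9, of the shorter SR proteins, wild type ran from 36.6 to 50.5 FPKM and MZoep from 51.2 to 66.6 (ratio 0.35). For hnrnpa0b they ran from 24.9 to 35.6 and from 36.1 to 52.4 (0.62, the highest of the 36). The level of each of these 3 genes is uncertain because of the overlaps given above. As hnrnpa0l and hnrnpa0b overlap each other, they may not be separate cases.

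For 2 genes every MZoep batch was below every wild-type batch, against 2.79% of genes. The wild-type batch means of hnrnpk were 147.3, 105.2, 94.7 and 111.1 FPKM in p1 to p4 and its MZoep means 71.03, 87.2, 62.5 and 86.8, with a ratio of -0.46. For srsf10a wild type ran from 28.5 to 51.3 FPKM and MZoep from 17.3 to 27.1 (-0.57, the lowest of the 36). Further genes at the ends of the range were srsf3a (85.9 and 128.7 FPKM, 0.58), higher in MZoep in each batch, and hnrnpa1a (92.1 and 66.6 FPKM, -0.46), lower in each batch. The batch means of both overlapped between the genotypes, for srsf3a from 73.6 to 97.04 and from 94.2 to 134.2. Read against the shares of all genes, these small counts do not set the splicing factor genes apart.

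**Figure D5:**
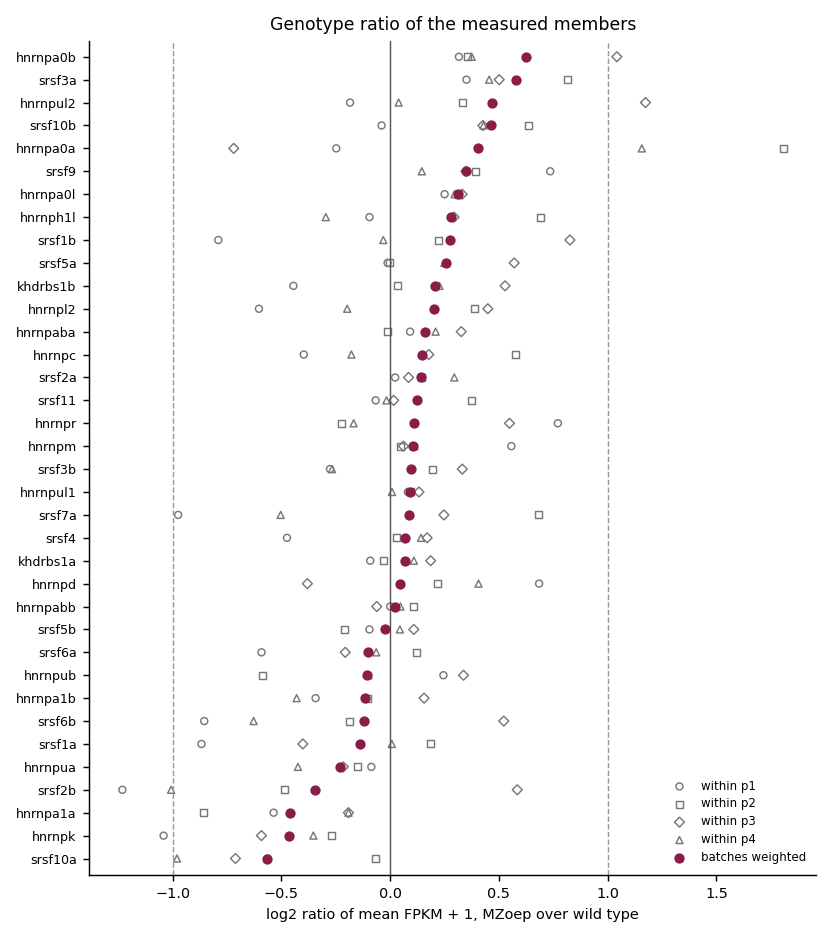
Log2 ratio of mean FPKM + 1, MZoep over wild type, of the 36 measured genes, with all batches weighted alike in both genotypes (filled) and within p1 to p4 (open). Dashed lines mark 2-fold. All filled points lie between -0.57 and 0.62, and for most genes the open points fall on both sides of 0.

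The genotypes also differed in other markers, whose part in these ratios was not tested. Of 10 enveloping layer genes 9 were measured, all 9 were higher in MZoep and 7 at least 2-fold higher. Of all measured genes 62% were higher and 5.26% at least 2-fold higher. Their summed FPKM per cell ran from 11.9 to 535 for wild-type and from 0 to 10560 for MZoep cells, with medians of 74.04 and 161.4. The 6 germ cell genes summed to between 0 and 105.99 FPKM in wild-type and between 0 and 6007 in MZoep cells. Their sums had medians of 37.5 and 44.5 and means of 46.1 and 97.5. Of the 6, 4 were higher in MZoep and 3 at least 2-fold higher, with a median log2 ratio of 1.11 over the list. The 8 apoptotic-like genes had medians of 253.8 and 250.5, within ranges of 30.4 to 1187 and 5.76 to 2531. The 5 yolk syncytial layer genes had medians of 0 in both, with highest cells of 21.5 and 170.8 FPKM, and no wild-type cell had apoa2. The 6 blastoderm genes had a highest cell of 1550 FPKM in wild type and of 2001 in MZoep, and of them 5 were higher and none 2-fold higher in MZoep.

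Other genes of the splicing pathway differed as little. In the core of the spliceosome (snRNP proteins and factors that recognise the branch point) 35 of 36 listed genes were measured, 21 higher and 14 lower in MZoep, with a median ratio of 0.02 and none 2-fold apart. Of these snrpb, a protein of the ring around spliceosomal RNA, was highest in wild type at 428 FPKM (375 in MZoep). The list held 0.601% and 0.606% of FPKM and 1.37% of UMIs, in sum less than the hnRNP, SR and KHDRBS genes. Its median level in MZoep was higher, however, at 93.7 FPKM against 66.9 FPKM. Of its 35 genes in the full-length data, 19 were among the 500 highest rows in MZoep, against 18 of the 42 splicing factor genes. Of 47 other RNA-binding regulators 36 were measured, with a median of 0.05 and none 2-fold apart. Their highest gene was cirbpb, for a cold-inducible RNA-binding protein, at 1045 and 1355 FPKM, followed by cirbpa at 545 and 587. The list also holds tra2a, an SR-like activator, at 233.9 and 230.1 FPKM.

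The enzymes and import receptors listed beside the splicing factors were far less abundant. Of the 13 listed kinases, phosphatases and import receptors none was among the 500 highest rows in MZoep and 1 in wild type (ppp1caa, for a phosphatase, rank 473), and 10 were measured. They held 0.0519% and 0.0577% of FPKM and had a median ratio of 0.29, with 6 higher, 4 lower and none 2-fold apart. The highest ratios were those of the phosphatase gene ppp1cab (34.3 and 57.5 FPKM, 0.73) and of clk2b and clk2a, for kinases of SR proteins (0.67 and 0.62). Within p1 to p4 ppp1cab had ratios of 0.41, 0.05, 1.28 and 1.03.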

How the data were processed

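Full-length values were deposited by the authors as FPKM (fragments scaled by transcript length and library size) and 5-prime values as UMI counts for each gene. Bowtie2, RSEM and build GRCz10 were used per the submitters' processing notes; the sources used here do not give annotation, strandedness, read assignment or UMI collapsing. The deposited counts also include 328 columns named for full-length cells, which are 0 throughout and were left aside. No genome or protein sequence was at hand, so how far reads can be told apart between paralogues was not measured.

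A full-length cell was kept if 1500 genes reached 1 FPKM, and a 5-prime cell if 500 genes had a UMI. No doublet caller was run. Genotype means average the batch means with weights common to both genotypes (7.85%, 32.4%, 37.8% and 22.0%, from the product of both cell numbers over their sum). Before taking log2, 1 FPKM was added, so differences of low genes are understated. Ranks are over all rows of a table. UMIs per 1000000 are summed over the 86 cells. Intervals are exact (95%) and cover counting error only. Low FPKM values near 2 read steps (within 10%) numbered 44807 of 556422, against 16641 between 1 and 2 steps.

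Cells are not replicates, so no test was made. Named with values were the 12 highest and 8 lowest genes, all paralogue pairs, and the 5 highest and lowest in dispersion, with the remainder given by range or for what is described. Genes of the pathway were taken from fixed lists. Members, lists and the paralogue and dispersion measures were chosen with earlier results of these data known. Python 3.11.15 with numpy 2.4.6, pandas 2.3.3 and scipy 1.17.1 was used, and the code was checked on simulated data.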

Additional observations from a re-analysis of the deposited data

How the results depend on the processing

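The median genotype ratio kept its sign under all 15 alternatives tried, from 0.04 with the highest rows left out to 0.18 with the mean of log2 values. The sign is not particular to these genes, as with the main settings the median was 0.13 over all measured genes and 0.10 over the splicing factor genes. Within p1 alone the latter was -0.10. No gene was 2-fold apart except hnrnpa0a without p3 (1 gene). Of 36 single ratios 22 kept their sign under every alternative and 14 did not. With no filter on cells the MZoep share of FPKM was 1.32% and 7 genes in place of 32 were in at least 90% of MZoep cells, since cells with few genes then count. Shares of FPKM in wild type and MZoep were 2.72% and 2.73% without the 10 highest rows (hnrnpa0l among them) and with each cell rescaled, and, as alternatives chosen after seeing the data, 3.26% and 3.37% without the 10 highest other rows and 1.12% and 1.18% without the 3 hnrnpa0 genes. Without those 3 genes the median share of the higher copy was 88.8% in wild type and 87.9% in MZoep. The dispersion median was 2.13 after thinning to 25000 UMIs (2.02 over all genes), 3.18 for genes with at least 5 UMIs per cell, 2.83 with the highest cell left out and 2.99 without the hnrnpa0 genes. The cause was not tested. No paired analysis was possible because no result comes from a test and cell numbers pair nothing; both genotypes are in all 4 batches, and the ratios within batches are given above as values. Depth limits genes with few UMIs, such as khdrbs3, whose absence from any cell cannot be read as lack of expression.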
